A study of Homo sapiens with 4 samples.

Results

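The 10 transcripts described here come from genes of the feedback arm of the ERK pathway and from other genes that ERK induces. For short, all 10 are called feedback genes below. They were chosen by symbol through the Entrez gene number of each probe set, out of 24241 named genes on the arrays. They are the MAP kinase phosphatases DUSP4, DUSP5, DUSP6 and DUSP7, the Sprouty genes SPRY2 and SPRY4, the Sprouty-related SPRED1 and SPRED2, and the ERK-induced genes EGR1 and IER3. All 10 were matched to a probe set, and 9 of them passed the filter on dim probe sets, which was a mean of at least 4.86 on the log2 scale. The set was proposed with the rapamycin results of these arrays already known, so the values of the 10 genes are a description and carry no test.

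Expression was measured in MOLM-14, a line of human acute myeloid leukemia in which an internal duplication keeps the receptor tyrosine kinase FLT3 active. The 2 control arrays came from cells without rapamycin, and the 2 rapamycin arrays from cells given 10 nM of the drug for 24 hours. Rapamycin binds FKBP12 and blocks the kinase complex mTORC1. The labels' protocols also describe doxycycline-inducible hairpins, scrambled or against PIM2, for MOLM-14 cells in all 4 samples, whereas the series design names only rapamycin. Whether these cultures carried a hairpin cannot be told from the labels, and all 4 arrays share that uncertainty. On the log2 scale PIM2 read 8.03 and 8.07 on the control arrays against 8.26 and 8.32 with rapamycin.

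ERK is the last kinase of the cascade that runs from receptors through RAS, RAF and MEK. Active ERK induces its own inhibitors. The DUSP proteins remove phosphate from MAP kinases, and Sprouty and SPRED proteins act further up, at RAS and RAF. In leukemia with mutant FLT3 the receptor feeds this cascade, and the levels of such feedback transcripts are commonly read as a trace of ERK output. No protein or phosphorylation was measured in the arrays.

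The 4 arrays had medians of 5.38 to 5.45 log2 units and correlated pairwise at 0.9925 to 0.9957. Of 10 measured markers of monocytic leukemia cells, 9 lay at or above the filter, among them FLT3, LYZ and CD68, and CD14 lay below it. Their summed linear signal was 8962 to 9486 in the controls and 8559 to 9066 with rapamycin. Of 17 measured markers of lymphoid, erythroid, epithelial, stromal and endothelial cells, 8 lay at or above the filter. These were CD79A, HBA1, KRT8, KRT18, COL1A1, COL1A2, PECAM1 and VWF, while CD3E and EPCAM were among those below it. HBA1 and KRT18 averaged 6.90 and 7.42 over the 4 arrays, above the monocytic list's MPO at 6.62. The summed signal of the 17 markers was 825 and 830 in the controls, and 781 and 962 with rapamycin. The rapamycin value of 962 is that of replicate 2, where KRT8 read 7.60 against 6.46 in replicate 1.

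Upstream sequence was taken from the RefSeq promoter table (GRCh38.p14) for 7 of the 10 genes. Of these, 5 are shown, those of the genes that read higher on both rapamycin arrays than on either control. Each stretch is the 250 bases before the listed transcription start, written 5′ to 3′ on the strand of the gene. For SPRY2 it is the most upstream of 3 listed starts. Capitals mark the CArG box, which serum response factor binds, and the CRE core TGACG of CREB and ATF factors, which reads in reverse complement as CGTCA.
EGR1: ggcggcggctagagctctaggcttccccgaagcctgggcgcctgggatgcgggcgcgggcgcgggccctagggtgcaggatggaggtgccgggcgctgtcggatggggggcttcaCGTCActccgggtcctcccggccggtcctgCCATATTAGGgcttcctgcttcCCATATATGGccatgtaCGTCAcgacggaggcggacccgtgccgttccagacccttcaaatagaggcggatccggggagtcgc
SPRY4: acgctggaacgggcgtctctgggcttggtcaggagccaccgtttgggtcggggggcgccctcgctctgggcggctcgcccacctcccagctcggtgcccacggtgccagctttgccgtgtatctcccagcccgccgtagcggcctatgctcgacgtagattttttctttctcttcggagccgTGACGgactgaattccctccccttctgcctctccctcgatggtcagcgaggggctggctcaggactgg
SPRY2: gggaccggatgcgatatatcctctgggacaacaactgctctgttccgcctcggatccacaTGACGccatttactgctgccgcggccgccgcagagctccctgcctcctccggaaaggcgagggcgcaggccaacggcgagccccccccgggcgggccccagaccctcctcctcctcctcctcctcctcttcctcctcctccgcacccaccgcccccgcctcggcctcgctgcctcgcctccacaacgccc
DUSP6: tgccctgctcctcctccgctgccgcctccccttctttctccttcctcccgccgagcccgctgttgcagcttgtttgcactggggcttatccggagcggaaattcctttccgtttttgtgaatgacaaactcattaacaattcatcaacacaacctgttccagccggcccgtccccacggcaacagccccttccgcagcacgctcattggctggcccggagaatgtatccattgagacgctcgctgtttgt
DUSP7: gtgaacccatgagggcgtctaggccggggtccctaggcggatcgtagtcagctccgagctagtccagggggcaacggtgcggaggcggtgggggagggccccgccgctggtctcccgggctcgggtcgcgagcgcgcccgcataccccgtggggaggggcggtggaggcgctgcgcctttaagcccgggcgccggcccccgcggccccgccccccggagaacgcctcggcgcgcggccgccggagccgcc
The stretches lie at chr5:138465229-138465478 on the plus strand for EGR1, and on the minus strand at chr5:142324248-142324497 for SPRY4, chr13:80341127-80341376 for SPRY2, chr12:89352502-89352751 for DUSP6 and chr3:52056572-52056821 for DUSP7.

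Both strands were searched for 4 motifs, and the share of all 35116 listed promoters of the same length that hold each was counted. EGR1 held 2 CArG boxes, beginning 105 and 83 bases before the start, and 2 CRE cores, beginning 135 and 66 bases before it. A CArG box was found in 1.16% of all listed promoters, and 2 or more in 0.0313%. A CRE core was found in 21.2%, SPRY4 having 1 that began 68 bases before the start and SPRY2 having 1 at 190 bases. The EGR site GCGNGGGCG, found in 8.41% of promoters, was present once upstream of EGR1 and of SPRY4 and in 2 places upstream of SPRY2. The ETS site CCGGAA, found in 14.5%, was present only upstream of SPRY2 among the 7 genes. DUSP6, DUSP7, SPRED1 and SPRED2 held none of the 4 motifs in these letters. No listed motifs overlapped in these stretches, apart from a CArG box reading the same way on both strands. These matches describe letters, and no binding was measured.

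Among the ERK phosphatases, DUSP6 and DUSP7 read higher on both rapamycin arrays than on either control, while DUSP5 did not separate the groups and DUSP4 was dim. DUSP6, a cytoplasmic phosphatase selective for ERK, read 9.04 and 9.00 on the log2 scale in the controls, and 9.62 on both rapamycin arrays. The replicates of each group nearly coincided, and the lowest rapamycin value lay 0.58 above the highest control. The group means were 9.02 ± 0.03 and 9.62 ± 0.003 (SD, n = 2), a log2 difference of 0.60 (SE 0.07), which is 1.51-fold. With each array left out in turn the difference ran from 0.58 to 0.61, the narrowest range of the 9 genes past the filter. By upward difference DUSP6 ranked at 53 of the 14635 genes tested, in the contrast from which it was proposed.

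DUSP7, a close relative of DUSP6 that also acts on ERK in the cytoplasm, read 9.07 and 9.04 in the controls and 9.41 and 9.51 with rapamycin. Both rapamycin arrays lay above both controls, with a gap of 0.34 between the groups. The log2 difference was 0.40 (SE 0.08), or 1.32-fold, from a control mean of 9.05 ± 0.02 to 9.46 ± 0.07 (SD, n = 2).

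DUSP5, a nuclear phosphatase of ERK, read 5.41 and 5.42 in the controls and 5.33 and 5.42 with rapamycin. Its groups overlapped, and the log2 difference was -0.04 (SE 0.13), with a 95% interval from -0.33 to 0.26. DUSP4, a nuclear phosphatase of ERK, JNK and p38, read 4.51 and 4.52 in the controls and 4.33 and 4.24 with rapamycin. It was the only 1 of the 10 whose rapamycin arrays both lay below the controls, and its mean of 4.40 fell under the filter. In the fit without a filter its log2 difference was -0.24 (SE 0.13).

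**Figure D1:**
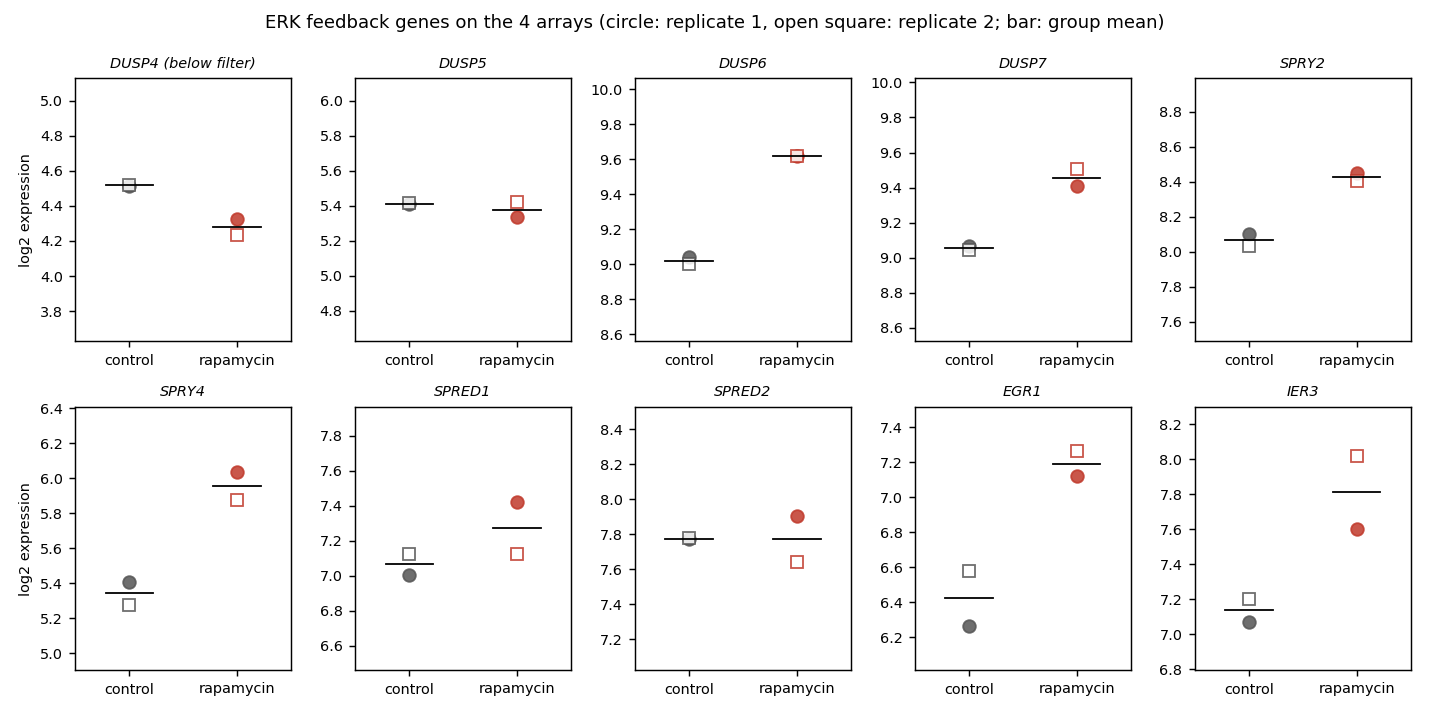
Log2 expression of the 10 feedback genes on each array, with a span of 1.5 log2 units on every vertical axis. Circles are replicate 1, open squares replicate 2 and bars group means. DUSP6, DUSP7, SPRY2, SPRY4, EGR1 and IER3 sit higher on both rapamycin arrays than on either control, and DUSP5, SPRED1 and SPRED2 overlap.

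Sprouty proteins restrain RAS and RAF activation below receptor tyrosine kinases. The Sprouty genes of the set, SPRY4 and SPRY2, were both higher with rapamycin, while SPRY1 and SPRY3, outside the set, did not separate the groups. SPRY4 read 5.41 and 5.28 in the controls and 6.04 and 5.88 with rapamycin, so the groups were apart by 0.47. Its log2 difference of 0.61 (SE 0.13), or 1.53-fold, was close to that of DUSP6 but came from a wider spread, with group means of 5.34 ± 0.10 and 5.96 ± 0.11 (SD, n = 2). SPRY2 read 8.10 and 8.03 in the controls and 8.45 and 8.40 with rapamycin. The groups were apart by 0.30, and the log2 difference was 0.36 (SE 0.09), or 1.28-fold.

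The SPRED genes, which recruit neurofibromin to RAS, did not separate the groups. SPRED1 read 7.01 and 7.13 in the controls and 7.42 and 7.12 with rapamycin. Only rapamycin replicate 1 stood above the controls, and the log2 difference of 0.21 (SE 0.12) became 0.06 without that array and 0.35 without rapamycin replicate 2. SPRED2 read 7.77 and 7.78 in the controls and 7.91 and 7.64 with rapamycin. Its rapamycin arrays lay on opposite sides of the controls, and the 95% interval of the difference ran from -0.24 to 0.24. For both genes the rapamycin replicates differed more than the control replicates, with SDs of 0.21 against 0.08 for SPRED1 and of 0.19 against 0.002 for SPRED2.

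The ERK-induced genes EGR1 and IER3 had the largest differences of the 10. EGR1, an immediate early zinc finger transcription factor and the gene with 2 CArG boxes above, read 6.26 and 6.58 in the controls and 7.12 and 7.26 with rapamycin. Its control replicates were further apart than its rapamycin replicates, yet the groups were apart by 0.54. The log2 difference was 0.77 (SE 0.13), or 1.71-fold, from 6.42 ± 0.22 to 7.19 ± 0.10 (SD, n = 2). It was 0.61 without control replicate 1 and 0.93 without control replicate 2. By upward difference the 9 feedback genes past the filter ranked from 18 (EGR1) to 9003 (DUSP5) of all genes tested. They were proposed from this same contrast, so nothing is read from the ranks.

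IER3, a stress-inducible regulator of cell survival that ERK phosphorylates, read 7.07 and 7.20 in the controls and 7.60 and 8.02 with rapamycin. Both rapamycin arrays exceeded both controls, and replicate 2 stood well above replicate 1. The log2 difference was 0.67 (SE 0.14), or 1.60-fold, and ran from 0.46 without rapamycin replicate 2 to 0.88 without rapamycin replicate 1. The 0.42 between its rapamycin arrays was the widest gap between replicates among the 10 genes.

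**Figure D2:**
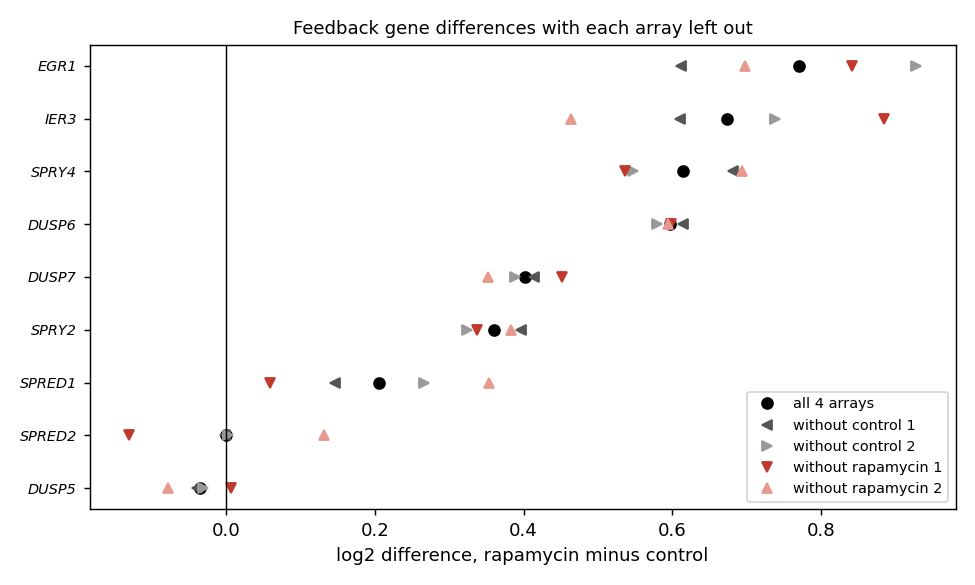
Log2 difference, rapamycin minus control, of the 9 feedback genes past the filter, with all 4 arrays (black) and with each array left out in turn. EGR1, IER3, SPRY4, DUSP6, DUSP7, SPRY2 and SPRED1 stay above 0 in each setting shown, while SPRED2 runs from -0.13 to 0.13 and DUSP5 from -0.08 to 0.01.

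Of the 9 genes past the filter, 6 read higher on both rapamycin arrays than on either control, which held for 24.9% of all genes tested. The median log2 difference was 0.40 over the 9 genes and 0.01 over all 14635. Under the call rule of the fit across all genes, an adjusted p under 0.05 from limma with Benjamini-Hochberg adjustment, 3 of the 9 were called higher (DUSP6, DUSP7 and EGR1) and 0 lower, with 6 of the 9 at an unadjusted p under 0.05. Over all genes tested, 0.417% were called higher, 0.861% lower and 1.28% in either direction, and 15.4% (2261 genes) had an unadjusted p under 0.05. As the genes were proposed from this same contrast, nothing is read from these counts or from the median of 0.40. The called count of the feedback genes depended on which array was left out, as did the count over all genes tested. In a bulk culture, more transcript per cell and more cells with the transcript cannot be told apart.

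The differences of the feedback genes were set beside those of 138 other genes of the pathway, in lists compiled from general knowledge of it. Of these, 124 were measured, 14 were not analysed here and 111 passed the filter. Of the 111, 2 fell, 0 rose and 109 did not pass, with 28 at an unadjusted p under 0.05 (limma). Over all genes tested 0.861% were called lower, 0.417% were called higher and 15.4% had an unadjusted p under 0.05 (limma). The median log2 difference of the 111 genes was 0.03. The genes that fell were DUSP10 and MAP2K6. MAP2K6 passed the filter only through its control arrays, so its call is a description.

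The other phosphatases and Sprouty genes showed a mixed picture, with 1 of 8 that fell, 0 that rose and 4 at an unadjusted p under 0.05 (limma). DUSP10, a phosphatase that prefers JNK and p38 over ERK, read 9.33 and 9.53 in the controls and 8.88 and 8.61 with rapamycin. All rapamycin values lay below the controls, and the gene fell 1.60-fold (log2 difference -0.68, SE 0.11, limma adjusted p = 0.0225). Without control replicate 2 the difference was -0.58 and missed the threshold (limma adjusted p = 0.0783), in a fit with 1 control array that is assumed to vary like the rapamycin arrays. DUSP16, which also prefers JNK and p38, had a log2 difference of -0.41 (SE 0.14, limma adjusted p = 0.208), and the broadly acting nuclear phosphatase DUSP1 one of -0.30 (SE 0.12, limma adjusted p = 0.286). The rest of the list was named after its values were seen. DUSP2, an inducible nuclear phosphatase of blood cells, stood at 0.29 (SE 0.13, limma adjusted p = 0.320) and the ERK phosphatase DUSP9 at 0.22 (SE 0.13). Both had rapamycin arrays above the controls. The groups overlapped for DUSP8 at 0.04 (SE 0.15), SPRY1 at 0.11 (SE 0.14) and SPRY3 at -0.07 (SE 0.14). The median of the 8 genes was -0.02. That of the feedback genes was 0.40, but they were proposed from this contrast, so nothing is read from the distance.

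**Figure D3:**
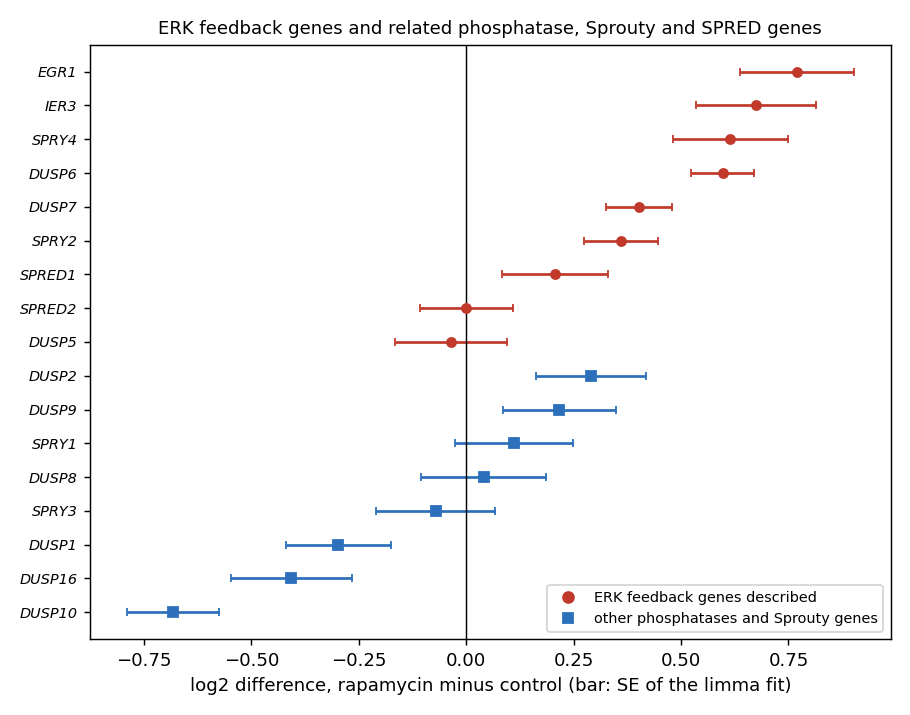
Log2 difference, rapamycin minus control, with the SE of the limma fit, for the 9 feedback genes past the filter (circles) and the 8 other phosphatase and Sprouty genes past it (squares). EGR1 is highest at 0.77 and DUSP10 lowest at -0.68.

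MAP2K6, the kinase that activates p38, was the 1 of 12 tested JNK, p38 and ERK5 kinases that fell. It read 5.42 and 5.49 in the controls and 4.68 and 4.53 with rapamycin. Both rapamycin values lie under the filter minimum of 4.86, so the gene passed the filter only through its control arrays and the size of the fall is measured against dim values. The fitted log2 difference was -0.85 (SE 0.14, limma adjusted p = 0.0264). It was -0.81 without control replicate 2 and missed the threshold there (limma adjusted p = 0.0856), again with 1 control array. The p38 kinase gene MAPK12 stood at 0.31 (SE 0.15) and MAP2K5, which activates ERK5, at -0.28 (SE 0.11).

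None of the 22 tested genes that run from the receptor to ERK and on to the RSK and MNK kinases it activates passed the limma test, with 6 at an unadjusted p under 0.05 and a median log2 difference of 0.01. The largest differences were -0.41 (SE 0.09) for GAB2, an adaptor that links receptors to SHP2, and 0.40 (SE 0.10) for RPS6KA1, an RSK kinase activated by ERK. Next came RPS6KA2, another RSK kinase, at -0.25 (SE 0.17), with overlapping groups. It read 4.64 and 5.02 with rapamycin. That mean of 4.83 lies under the filter minimum, so RPS6KA2 passed the filter only through its control arrays. Among 21 tested negative regulators of RAS and ERK outside the DUSP and Sprouty families, 0 passed limma and 4 had an unadjusted p under 0.05. The receptor inhibitor ERRFI1 stood at -0.37 (SE 0.10), the antiproliferative TOB1 at -0.38 (SE 0.12) and the RAS GTPase-activating protein RASAL3 at 0.31 (SE 0.12). The median of that list was 0.03.

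Other transcripts that ERK can induce had differences in both directions. Of 19 tested immediate early genes outside the feedback set, 0 passed limma and 6 had an unadjusted p under 0.05, at a median of 0.02. Over all genes tested 1.28% passed limma and 15.4% had an unadjusted p under 0.05, so a count of 0 in a short list says little. IER2 read 6.96 and 7.12 in the controls and 7.34 and 7.59 with rapamycin (log2 difference 0.43, SE 0.12, limma adjusted p = 0.131). The zinc finger factor KLF6 stood at -0.53 (SE 0.13, limma adjusted p = 0.0853) and the AP-1 subunit JUN at -0.45 (SE 0.22), with overlapping groups for JUN. JUN read 5.06 and 4.58 with rapamycin. That mean of 4.82 lies under the filter minimum, so JUN passed the filter only through its control arrays. Of 14 tested further transcripts that follow ERK activity in cancer cells, 0 passed limma and 3 had an unadjusted p under 0.05, at a median of 0.10. The ETS factor ETV4 stood at 0.46 (SE 0.14, limma adjusted p = 0.152), the urokinase receptor PLAUR at 0.30 (SE 0.09) and the polo-like kinase PLK2 at -0.54 (SE 0.18).

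The transcription factors that ERK acts on also gave 0 called genes of 15 by limma, with 3 at an unadjusted p under 0.05 and a median of 0.05. ELK3, a partner of serum response factor at CArG boxes, read 7.15 and 7.10 in the controls and 7.60 and 7.55 with rapamycin (log2 difference 0.45, SE 0.10, limma adjusted p = 0.0634). ETS2 stood at -0.32 (SE 0.08) and ETS1 at -0.25 (SE 0.11). The number of genes past the test over all these lists depended on which array was left out, as did the number over all genes tested.

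**Figure D4:**
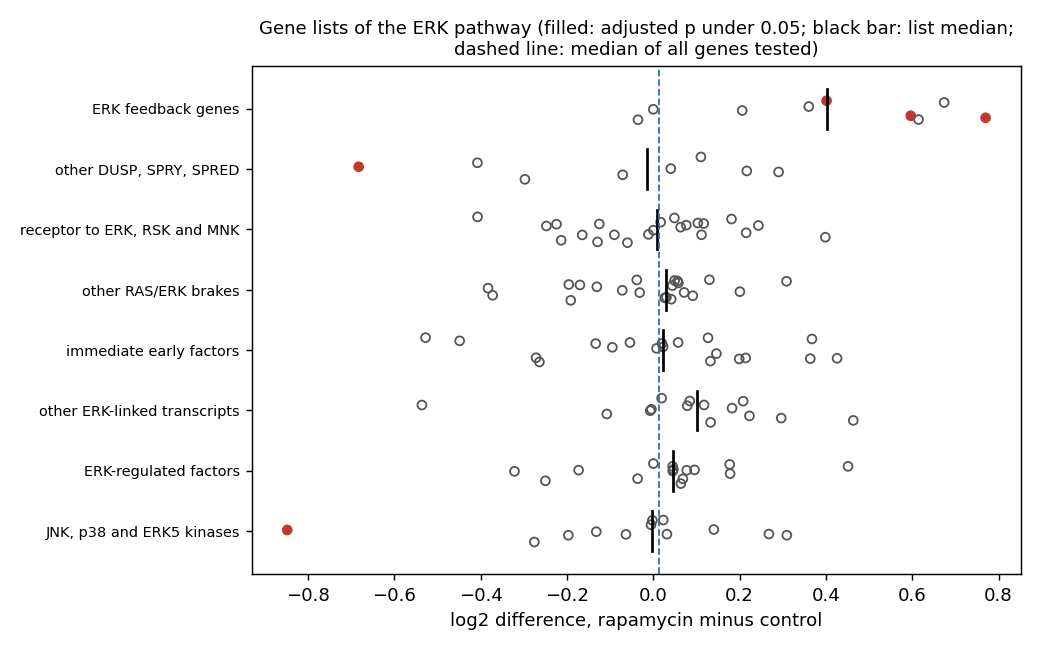
Log2 difference, rapamycin minus control, of each gene tested in the 8 lists, with small vertical offsets for legibility. Filled points have a limma adjusted p under 0.05 (for the feedback genes a description, as they were proposed from this contrast), black bars are list medians and the dashed line is the median of all genes tested, 0.01. The median is between -0.02 and 0.10 for the other lists and 0.40 for the feedback genes, where it is likewise a description.

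The genes outside the set whose 4 values lay nearest to those of EGR1, after centring each gene on its mean, were MMD, GPR84 and MIR4747, at Euclidean distances of 0.09, 0.17 and 0.18 over 4 arrays. MMD, a membrane protein linked to macrophage maturation, read 5.69 and 5.89 in the controls and 6.43 and 6.61 with rapamycin. For IER3 the nearest were RNU6-82P, MIR4685 and MIR4677, at 0.13, 0.13 and 0.16 over 4 arrays.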

How the data were processed

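Gene expression was measured on 2 control and 2 rapamycin arrays of MOLM-14 cells. Each array has 1 log2 value per probe set, as deposited by the authors. Per the submitters' processing notes, RMA and Partek were used, with no version or role stated. That the scale is log2 was inferred from the range of the values. The genome build of the probe sets is not given in the sources used here. Groups came from the agent label and replicate numbers from the titles. Nothing states that replicates were separate cultures, so p-values reflect only how much these arrays vary, possibly for technical reasons.

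Of 25582 probe sets, 24244 had 1 gene symbol, 0 several and 1338 none in the platform annotation. Probe sets below the 40th percentile of mean signal (4.86) were left out, and the brightest probe set stood for a gene, which left 14635 genes. The arrays were fitted with limma 3.58.1 in R 4.3.3, with group as the only term and eBayes with its trend option for the mean-variance relation. P-values are two-sided, with Benjamini-Hochberg adjustment over all genes tested, and SE is that of the moderated fit. Log2 differences are rapamycin minus control. The code was tested on simulated data. The number of arrays limits the precision, with a median SE of 0.12.

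The members and lists were chosen with earlier results of these data known. Named are all 10 feedback genes, every other listed gene past the test, the 3 with the largest absolute difference in each list with fewer than 3 such genes, the 3 nearest in pattern to each of the 2 feedback genes with the largest difference, and PIM2 as the hairpin target. The other tested phosphatase and Sprouty genes, DUSP2, DUSP8, DUSP9, SPRY1 and SPRY3, were named after their values were seen. Alternatives changed the filter, normalization, moderation, replicate block, probe set choice, gene class and arrays used.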

Additional observations from a re-analysis of the deposited data

How the results depend on the processing

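Over all genes, 187 were called (61 higher, 126 lower). The count was 60 with no filter, 317 with each array centred on its median, 17 without the mean-variance trend and 76 to 1300 with 1 array left out. Of the feedback genes 3 were called, but 1 (DUSP6) with no filter, 0 without the trend (6 at an unadjusted p under 0.05, limma), 5 among protein-coding genes alone and 1 to 5 with 1 array left out. Centring took DUSP7 out of the calls and brought in IER3 and SPRY4. Of the other pathway genes 2 were called, but 1 with the filter at the 60th percentile, which MAP2K6 did not pass, and 0 with no filter or without the trend (26 and 21 at an unadjusted p under 0.05, limma). With 1 array left out that count was 0 to 19. The cause of these shifts was not tested. With the replicate number as a block 321 genes were called (116 higher, 205 lower), 4 of them feedback genes and 3 other pathway genes. The arrays share only a number: same-numbered arrays deviated together at r = -0.03 over all probe sets. DUSP6, DUSP7, SPRY2, SPRY4, EGR1, IER3 and SPRED1 had positive differences under every alternative in which they were tested. All of these but SPRED1 had both rapamycin arrays above both controls, so leaving out 1 array cannot change their sign. The filter, moderation and block settings leave a difference unchanged, so nothing is read from this stability. The difference of DUSP6 was 0.57 with each array centred and 0.63 with quantile normalization repeated, moves beyond its replicate spread.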
